A study of Mus musculus with 18 samples.

Results

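The immunoglobulin Fc receptors examined here are 6 mouse genes, Fcgr1, Fcgr2b, Fcgr3, Fcgr4, Fcgrt and Fcer1g, listed by symbol and matched to the Entrez gene identifiers of the counts tables, out of 24052 genes in each table. All 6 were present and passed the filter on low counts in both experiments. Bone marrow-derived macrophages, grown from C57BL/6 marrow with 20 ng/ml of the growth factor M-CSF, were profiled by sequencing the 3′ ends of polyadenylated RNA in 18 libraries. In experiment 1, wild-type cells formed 4 groups of 3 libraries. The DI plus LPS group received 0.25 mM dimethyl itaconate (DI), an itaconate ester that can enter cells, for 12 h, followed by 4 h with LPS (bacterial lipopolysaccharide, 100 ng/ml). The LPS group received vehicle and then LPS, the DI group received DI without LPS, and the vehicle group received neither. In experiment 2, 3 libraries of Irg1-/- macrophages and 3 of wild-type macrophages were exposed for 24 h to LPS (100 ng/ml) together with interferon gamma (50 ng/ml), with no DI in either group. Irg1, now named Acod1, encodes the enzyme that makes itaconate. How the Irg1-/- allele was made was not given in the sources used here. Both experiments used cells in culture, and the labels do not say whether replicates came from separate animals or separate cultures, so p-values measure only the spread between these libraries, which may be technical.

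Fc receptors bind the constant part of antibodies and so let macrophages engulf, destroy or respond to whatever an antibody has coated. In mice, Fcgr1, Fcgr3 and Fcgr4 encode activating receptors for IgG, which have no signalling motif of their own and pair with the common gamma chain encoded by Fcer1g, whose tyrosine motifs recruit the kinase Syk. Fcgr2b encodes the inhibitory IgG receptor, which recruits the phosphatase encoded by Inpp5d and raises the threshold for activation, and Fcgrt encodes the neonatal Fc receptor, which pairs with beta-2 microglobulin inside the cell and protects IgG and albumin from degradation.

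In the RefSeq annotation of GRCm38.p6, Fcgr1 (gene 14129) lies at chr3:96282909-96293969 and Fcgrt (gene 14132) at chr7:45092993-45103822. The other 4 genes share a stretch of chromosome 1, with Fcgr2b (gene 14130) at chr1:170960558-170976071, Fcgr4 (gene 246256) at chr1:171018926-171029761, Fcgr3 (gene 14131) at chr1:171051169-171065915 and Fcer1g (gene 14127) at chr1:171229572-171234349. The RefSeq promoter windows of the 3 receptor genes whose counts moved together in experiment 1, Fcgr1, Fcgr4 and Fcgr2b, are printed with the first of 2 overlapping windows of Fcgr3, which did not move with them. Each window holds 250 bases before and 50 bases after the annotated start, 5′ to 3′ on the gene's strand. Capitals mark matches on either strand to TTCNNNGAA (the gamma-activated site), GAAA, any 2 bases and GAAA again (the core of the interferon-stimulated response element) or GAGGAA (a core bound by the myeloid factor PU.1).
Fcgr1 (chr3:96293920-96294219, minus strand): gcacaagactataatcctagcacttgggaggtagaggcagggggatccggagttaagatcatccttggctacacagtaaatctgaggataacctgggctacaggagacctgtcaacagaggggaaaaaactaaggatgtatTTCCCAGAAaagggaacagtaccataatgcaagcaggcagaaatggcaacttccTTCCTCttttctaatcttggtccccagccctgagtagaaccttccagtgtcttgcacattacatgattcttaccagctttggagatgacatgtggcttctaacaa
Fcgr4 (chr1:171018676-171018975, plus strand): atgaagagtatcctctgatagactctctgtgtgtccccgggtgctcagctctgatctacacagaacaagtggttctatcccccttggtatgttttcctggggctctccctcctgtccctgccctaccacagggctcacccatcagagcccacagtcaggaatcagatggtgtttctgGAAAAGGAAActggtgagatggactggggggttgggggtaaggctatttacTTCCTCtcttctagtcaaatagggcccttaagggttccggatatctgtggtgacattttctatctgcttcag
Fcgr2b (chr1:170976022-170976321, minus strand): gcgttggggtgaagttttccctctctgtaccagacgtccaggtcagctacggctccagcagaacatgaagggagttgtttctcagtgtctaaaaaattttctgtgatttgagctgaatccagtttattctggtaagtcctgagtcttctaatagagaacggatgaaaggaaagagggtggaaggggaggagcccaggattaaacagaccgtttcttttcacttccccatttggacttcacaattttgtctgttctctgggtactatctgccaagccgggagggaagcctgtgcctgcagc
Fcgr3 (chr1:171059354-171059653, minus strand): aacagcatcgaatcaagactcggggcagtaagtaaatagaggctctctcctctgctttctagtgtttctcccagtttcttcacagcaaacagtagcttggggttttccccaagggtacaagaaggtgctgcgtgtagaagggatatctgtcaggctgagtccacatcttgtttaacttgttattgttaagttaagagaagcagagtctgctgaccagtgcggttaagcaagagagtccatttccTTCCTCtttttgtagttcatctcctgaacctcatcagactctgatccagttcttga
The Fcgr1 window held a gamma-activated site match, TTCCCAGAA, beginning 109 bases before the start, and a PU.1 core beginning 55 bases before it. The Fcgr4 window held the response element core GAAAAGGAAA beginning 73 bases before the start and a PU.1 core beginning 22 bases before it. The Fcgr3 window held a PU.1 core alone, 6 bases before the start, and the Fcgr2b window held none of the 3. No marked matches overlapped one another. Among all 32851 RefSeq windows of this length, 8.3% held TTCNNNGAA, 3.44% held the response element core and 28.3% held GAGGAA. The windows of Fcgrt and Fcer1g held none of these 3 patterns. Of the other patterns searched, TGANNNNGC (the antioxidant response element core) matched in the Fcgrt and Fcer1g windows and in 41.3% of all windows, and GGG, any 5 bases and CC (an NF-kB core) matched in the windows of Fcgr2b, Fcgr3, Fcgr4 and Fcer1g and in 50.8% of all windows. These matches are letters in a window, and nothing in the data measured a factor bound there.

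Library totals in experiment 1 were 4032466 to 5959474 counts for DI plus LPS, 955718 to 3761119 for LPS, 5233342 to 7629669 for DI and 2228760 to 7010265 for vehicle, and those in experiment 2 were 3900554 to 5491684 for Irg1-/- and 3088644 to 4454025 for wild type. LPS replicate 3 was the shallowest and stood apart: its log2 CPM (counts scaled to the library total) correlated with those of the other LPS libraries at 0.78 and 0.80, against 0.89 between those other libraries. TMM, the scaling that evens out differences in RNA composition, gave factors of 0.795 to 0.856 for DI plus LPS, 0.576 to 0.803 for LPS, 1.16 to 1.28 for DI and 1.32 to 1.47 for vehicle, so values depend on it and results that change with plain library totals are named. All levels below are TMM-scaled CPM, and all tests are edgeR quasi-likelihood tests with Benjamini-Hochberg adjustment over every gene tested, 10285 in experiment 1 and 9491 in experiment 2, a gene being called at an adjusted p under 0.05. All 10 macrophage markers were detected in every group, with summed CPM, not TMM-scaled, of 5950 to 9722 in DI plus LPS, 3898 to 8818 in LPS, 12060 to 16200 in DI and 14120 to 19950 in vehicle. On the same scale the neutrophil markers summed to 216 to 338 in DI plus LPS, 150 to 290 in LPS, 180 to 322 in DI and 350 to 523 in vehicle, and the stromal markers to 21.4 to 34.9, 22.0 to 42.8, 25.4 to 29.2 and 37.4 to 70.0 in those groups. In experiment 2 the neutrophil markers summed to 9.29 to 12.3 in Irg1-/- and 11.9 to 18.5 in wild type, the stromal markers to 9.11 to 16.9 and 9.25 to 18.4, and the dendritic cell markers to 13.1 to 20.4 and 18.9 to 22.7. In experiment 1 the B cell markers reached at most 4.14, the NK and T cell markers 0.916 and the dendritic cell markers 8.97. The part of other cells in the results was not tested. Irg1 transcripts (Acod1) were 28.4, 14.8 and 31.4 CPM in the 3 Irg1-/- libraries, against 4131, 4665 and 4225 CPM in wild type, which fits the genotype labels.

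The 6 Fc receptor genes did not vary together across the groups of experiment 1. Fcgr1, Fcgr2b and Fcgr4 were several-fold higher with LPS, several-fold lower with DI, and far lower in DI plus LPS than in LPS. Fcgr3, an activating receptor gene that lies next to Fcgr4, did not pass the test for LPS or DI against vehicle or for DI plus LPS against LPS. Fcgrt was lower than in vehicle in each of the LPS, DI and DI plus LPS groups. Fcer1g, the signalling chain, showed smaller differences that depended on the scaling. The RNA came from whole cultures, so fewer cells of a kind and less RNA per cell cannot be told apart.

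**Figure D1:**
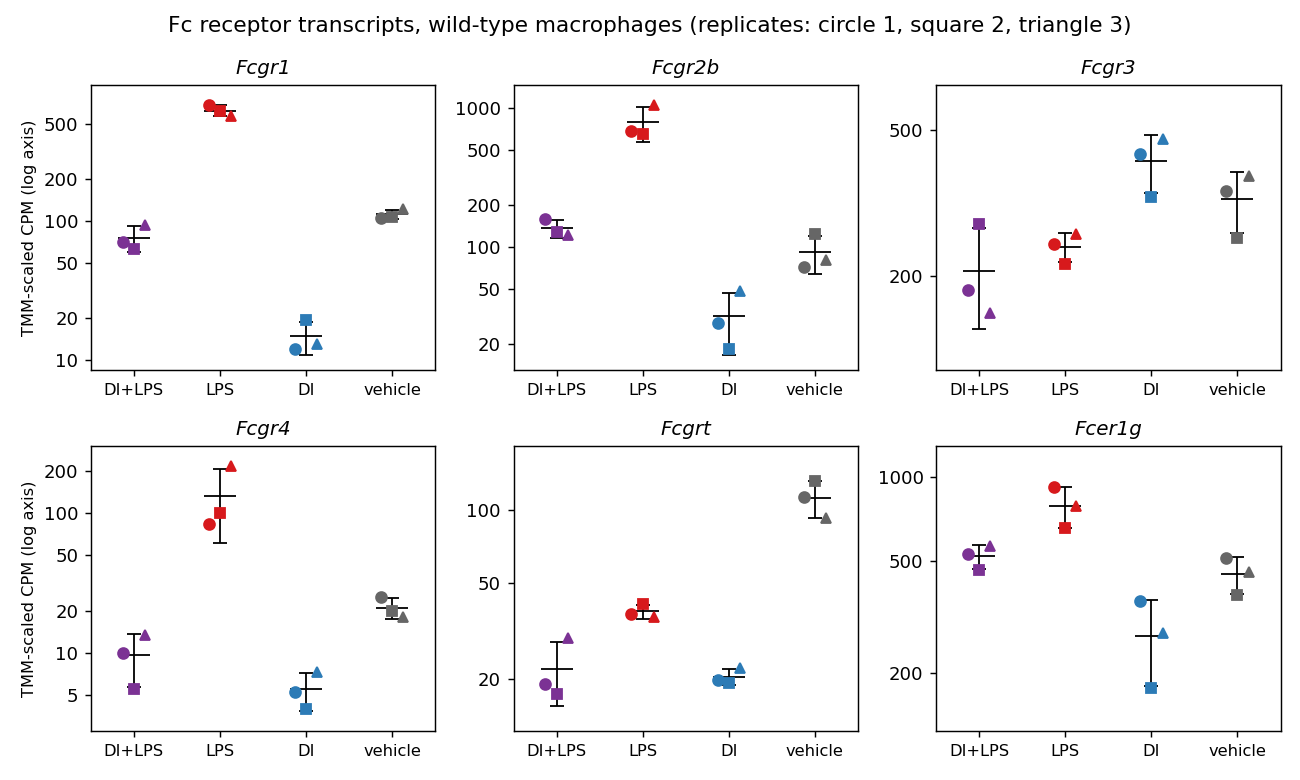
TMM-scaled CPM of each Fc receptor gene in the 12 libraries of experiment 1, on log axes that differ between panels. Points are libraries, with circles for replicate 1, squares for 2 and triangles for 3, horizontal bars are group means and vertical bars 1 SD. Fcgr1, Fcgr2b and Fcgr4 peaked in LPS, where their means were 625, 794 and 133 CPM, and Fcgrt peaked in vehicle at 113 CPM.

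Of the activating receptors, Fcgr1 is the one with high affinity for IgG. It had 70.4, 62.8 and 93.8 CPM in the DI plus LPS libraries and 685, 618 and 572 CPM in the LPS libraries. It had 12.0, 19.3 and 12.9 CPM in the DI libraries and 106, 108 and 122 CPM in the vehicle libraries. The 4 groups did not overlap one another: LPS was highest, then vehicle, then DI plus LPS, and DI was lowest. Fcgr1 was 5.59-fold higher in LPS than in vehicle (log2 2.48 ± 0.29 SE, adjusted p = 3.8e-06) and 7.60-fold lower in DI than in vehicle (log2 -2.93 ± 0.30 SE, adjusted p = 2.1e-05). With both agents it was 8.27-fold lower than with LPS (log2 -3.05 ± 0.30 SE, adjusted p = 4.9e-06) and 5.14-fold higher than with DI (log2 2.36 ± 0.30 SE, adjusted p = 1.2e-05). DI plus LPS and vehicle, neighbours in that order, did not differ past the threshold (log2 -0.56, 95% interval -1.16 to 0.03, adjusted p = 0.16), although with library totals alone Fcgr1 was lower in DI plus LPS (log2 -1.35, adjusted p = 0.0029).

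Fcgr4, a mouse activating receptor for IgG found on monocytes, macrophages and neutrophils, had 51, 18 and 43 counts in the 3 DI plus LPS libraries, equal to 5.51 to 13.4 CPM, and 83.5, 99.98 and 216 CPM in LPS. It had 5.30, 3.96 and 7.34 CPM in DI and 25.1, 20.0 and 18.1 CPM in vehicle. Every LPS library was above every other library, and the DI plus LPS and DI libraries overlapped at the low end. Fcgr4 was 6.15-fold higher in LPS than in vehicle (log2 2.62 ± 0.42 SE, adjusted p = 9.5e-05) and 13.5-fold lower in DI plus LPS than in LPS (log2 -3.76 ± 0.45 SE, adjusted p = 2.2e-05), the largest change of any of the 6 genes. The high value of 216 CPM came from the shallow LPS replicate 3, and without that library these changes were 2.14 (adjusted p = 4.8e-05) and -3.26 (adjusted p = 2.5e-06) on the log2 scale. Fcgr4 was 3.78-fold lower in DI than in vehicle (log2 -1.92 ± 0.42 SE, adjusted p = 0.014), a call lost without vehicle replicate 1 (adjusted p = 0.085), DI replicate 1 (0.087) or DI replicate 2 (0.10). DI plus LPS did not differ past the threshold from DI (log2 0.78, adjusted p = 0.23) or from vehicle (log2 -1.13, adjusted p = 0.055), and the comparison with vehicle passed in 11 of 20 settings, among them DESeq2 (adjusted p = 0.017) and library totals alone (log2 -1.92, adjusted p = 0.0018).

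Fcgr3 encodes an activating receptor with lower affinity for IgG. Its counts were 184, 279 and 159 CPM in DI plus LPS and 244, 217 and 262 CPM in LPS. They were 431, 329 and 474 CPM in DI and 343, 255 and 375 CPM in vehicle. Only the DI plus LPS and DI libraries, and the LPS and DI libraries, were apart, and all other pairs of groups overlapped. Fcgr3 was 1.99-fold lower in DI plus LPS than in DI (log2 -0.99 ± 0.29 SE, adjusted p = 0.023). This call was lost without DI replicate 1 (adjusted p = 0.075), DI replicate 3 (0.10), DI plus LPS replicate 1 (0.11) or DI plus LPS replicate 3 (0.12). The difference was -0.43 between LPS and vehicle (95% interval -1.05 to 0.19, adjusted p = 0.27), 0.34 between DI and vehicle (-0.27 to 0.96, adjusted p = 0.69) and -0.22 between DI plus LPS and LPS (-0.84 to 0.40, adjusted p = 0.66) on the log2 scale. With library totals alone Fcgr3 was lower in LPS than in vehicle (log2 -1.42, adjusted p = 0.0017) and in DI plus LPS than in vehicle (log2 -1.45, adjusted p = 0.0022, against -0.65 and 0.12 with TMM). In neighbouring places of its order, which ran DI, vehicle, LPS and DI plus LPS, no pair differed past the threshold.

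Fcer1g, the gamma chain that the 3 activating receptors share, had 530.2, 467 and 570.2 CPM in DI plus LPS and 927, 659 and 790.0 CPM in LPS. It had 359.8, 177 and 278 CPM in DI and 516, 378 and 458 CPM in vehicle. LPS libraries were highest and DI libraries lowest, and the DI plus LPS and vehicle libraries overlapped between them. Fcer1g was 1.76-fold higher in LPS than in vehicle (log2 0.81 ± 0.30 SE, adjusted p = 0.044) and 1.92-fold higher in DI plus LPS than in DI (log2 0.94 ± 0.30 SE, adjusted p = 0.034). The first call held in 9 of 21 settings and the second in 11 of 20. The first was lost without any 1 of the 3 vehicle or 3 DI plus LPS libraries, LPS replicate 1 or DI replicate 3, at adjusted p up to 0.16. The second was lost without vehicle replicate 3, DI replicate 2, DI replicate 3 or any 1 of the 3 DI plus LPS libraries, at adjusted p up to 0.17. With library totals alone the first turned to log2 -0.16 (adjusted p = 0.69) and the second fell below the threshold at 0.34 (adjusted p = 0.46), in the same direction. DI plus LPS against LPS gave log2 -0.60 (adjusted p = 0.19) and DI against vehicle -0.73 (adjusted p = 0.26), and groups did not overlap in either. Mast cells and basophils also use this chain. In CPM that was not TMM-scaled, their 9 markers summed to 4.14 to 5.46 in DI plus LPS and 26.6 to 32.4 in LPS. On that scale they summed to 0.786 to 1.95 in DI and 0.449 to 2.57 in vehicle. Hdc was the only marker of that list to pass the filter, at a mean of 34.5 TMM-scaled CPM in LPS. Of the 9 markers, 3 had no count in DI plus LPS, 5 in LPS, 4 in DI and 4 in vehicle. Fcer1a, Ms4a2 and Tpsb2 were at 0 in all 4 groups, and Mcpt8 was at 0 in DI and vehicle and was detected in DI plus LPS and LPS. The part of such cells in the Fcer1g values was not tested.

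Fcgr2b, the inhibitory receptor, had 160, 129 and 122 CPM in DI plus LPS and 686, 646 and 1048 CPM in LPS. It had 28.6, 18.7 and 48.6 CPM in DI and 72.5, 125 and 81.1 CPM in vehicle. LPS was highest, DI was lowest without overlap, and DI plus LPS overlapped vehicle. Fcgr2b was 8.54-fold higher in LPS than in vehicle (log2 3.09 ± 0.38 SE, adjusted p = 5.1e-06), 5.78-fold lower in DI plus LPS than in LPS (log2 -2.53 ± 0.37 SE, adjusted p = 0.00016) and 4.27-fold higher in DI plus LPS than in DI (log2 2.09 ± 0.36 SE, adjusted p = 0.00036). Its highest value was again LPS replicate 3, without which the change was 2.88 in LPS against vehicle (adjusted p = 6.1e-07) and -2.30 in DI plus LPS against LPS (adjusted p = 4.4e-05) on the log2 scale. It was 2.89-fold lower in DI than in vehicle (log2 -1.53 ± 0.36 SE, adjusted p = 0.024). This call was lost without vehicle replicate 2 (adjusted p = 0.14), vehicle replicate 3 (0.056), DI replicate 1 (0.12) or DI replicate 2 (0.15). DI plus LPS and vehicle did not differ past the threshold (log2 0.56, 95% interval -0.17 to 1.30, adjusted p = 0.27), while limma voom with sample weights called it higher (log2 0.77, adjusted p = 0.017) and library totals alone gave log2 -0.20. Counts without strand would also take in reads of the antisense gene Gm38204, which overlaps Fcgr2b over 3175 bases, and 2.25% of the 50-base words in the last 500 bases of Fcgr2b transcripts also occur in Fcgr3.

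Fcgrt, the neonatal receptor, had 19.0, 17.5 and 29.5 CPM in DI plus LPS and 37.1, 41.0 and 36.3 CPM in LPS. It had 19.9, 19.3 and 22.2 CPM in DI and 113, 132 and 92.5 CPM in vehicle. Vehicle stood above all other libraries and LPS above both DI groups, which overlapped. It was 2.94-fold lower in LPS than in vehicle (log2 -1.56 ± 0.31 SE, adjusted p = 0.00079), 5.49-fold lower in DI than in vehicle (log2 -2.46 ± 0.31 SE, adjusted p = 0.00021) and 5.13-fold lower in DI plus LPS than in vehicle (log2 -2.36 ± 0.31 SE, adjusted p = 1.7e-05). These 3 calls held in every setting tried. DI plus LPS against LPS gave log2 -0.80 (adjusted p = 0.093, and 0.024 by DESeq2), and DI plus LPS against DI gave 0.10 (95% interval -0.54 to 0.73, adjusted p = 0.87). B2m, which encodes its partner beta-2 microglobulin, was 2.21-fold higher in LPS than in vehicle (log2 1.14 ± 0.31 SE, adjusted p = 0.0077), at 5025 ± 966 CPM in LPS and 2272 ± 205 CPM in vehicle (SD, n = 3 each). Library totals alone moved the median of all genes by log2 -0.94 in that comparison, and B2m with them is not given here. The antisense gene Gm45669 overlaps Fcgrt over 5331 bases, with the same limit on counts without strand.

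**Figure D2:**
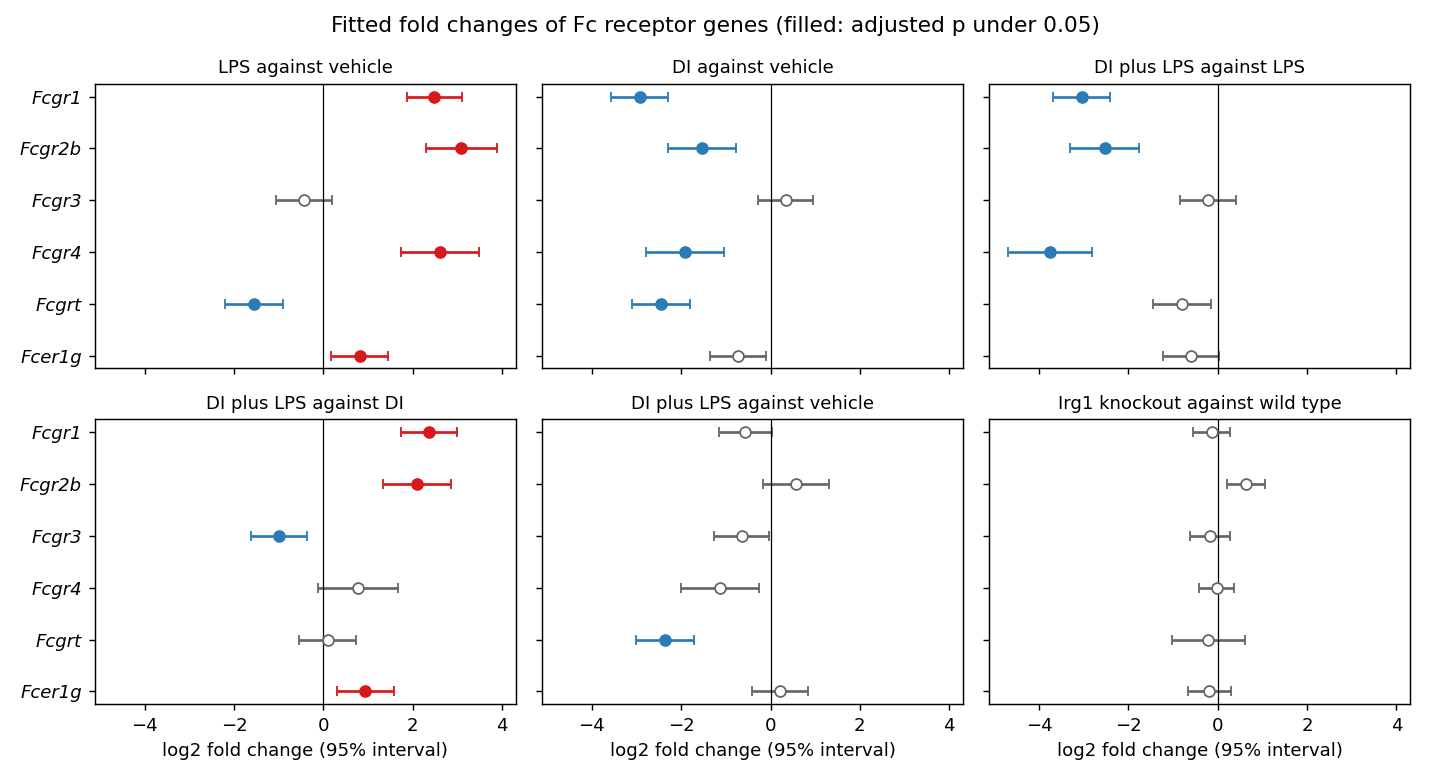
Fitted log2 fold changes of the 6 genes in 6 comparisons, with 95% intervals as horizontal bars. Filled points had an adjusted p under 0.05, red for higher and blue for lower, and open grey points did not. Fcgr1, Fcgr2b and Fcgr4 lie right of 0 for LPS against vehicle and left of 0 for DI against vehicle and for DI plus LPS against LPS.

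Read as a group, 4 of the 6 genes were called higher and 1 lower in LPS against vehicle, where 16% of all genes tested were called higher and 18.4% lower. In DI against vehicle, 4 of the 6 were called lower and 0 higher, where 1.51% of all genes were called lower and 1.33% higher. Fcer1g was not among them by edgeR at log2 -0.73, but limma voom with sample weights called it lower (adjusted p = 0.027). In DI plus LPS against LPS, 3 of the 6 were called lower and 0 higher, where 7.53% of all genes were called lower and 8.38% higher. Those 3 calls, Fcgr1, Fcgr2b and Fcgr4, held in all 21 settings, including each left-out library. In DI plus LPS against DI, 3 were called higher and 1 lower, where 11.4% of all genes were called higher and 7.56% lower. In DI plus LPS against vehicle, 1 was called lower and 0 higher, where 11% of all genes were called lower and 13.6% higher. The comparisons share control libraries and are not independent of each other.

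Whether LPS acted differently after DI was tested as an interaction, the LPS change after DI minus the LPS change after vehicle. Only Fcgrt was called, at log2 1.66 ± 0.43 SE (adjusted p = 0.045): its level differed little between DI plus LPS and DI, while LPS was well below vehicle. Against this single higher call and 0 lower, 1.39% of all genes were called higher and 1.52% lower. The Fcgrt call held in 5 of 19 settings, and it was lost without any 1 library other than LPS replicate 3, at adjusted p between 0.051 and 0.14. Fcgr4 gave log2 -1.84 ± 0.59 SE (adjusted p = 0.099, and 0.039 by DESeq2), with 0.049 without LPS replicate 1. For Fcgr1 the interaction was -0.12 (95% interval -0.97 to 0.73, adjusted p = 0.92), so its LPS response was of like size on the log scale with and without DI, within that interval. Fcgr2b gave -0.9996 (-2.04 to 0.04, adjusted p = 0.30), Fcgr3 -0.56 (adjusted p = 0.52) and Fcer1g 0.13 (adjusted p = 0.92).

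Ratios of counts within a library need no scaling between libraries, and their differences between groups are described here with no test. The log2 ratio of Fcgr3 to the inhibitory Fcgr2b was 0.20, 1.11 and 0.38 in DI plus LPS, -1.49, -1.58 and -1.999 in LPS, 3.91, 4.13 and 3.28 in DI and 2.24, 1.03 and 2.21 in vehicle. LPS lay lowest and DI highest, with no overlap between them and any other group. The mean was 11.4-fold lower in LPS than in vehicle, 3.87-fold higher in DI than in vehicle and 4.76-fold higher in DI plus LPS than in LPS. Fcgr3 was called in none of these comparisons and Fcgr2b in each, so this ratio largely restates the Fcgr2b differences. For Fcgr1 to Fcgr2b, the groups overlapped in LPS against vehicle, DI against vehicle and DI plus LPS against LPS, and DI plus LPS lay 2.25-fold below vehicle without overlap. The ratio of Fcgr4 to Fcgr2b was lowest in DI plus LPS, at log2 -3.98, -4.51 and -3.18, against -3.04, -2.69 and -2.27 in LPS, a mean 2.34-fold lower with no overlap. Fcer1g counts against the summed counts of the 3 activating receptors were 2.28-fold higher in DI plus LPS than in LPS and 1.62-fold lower in DI than in vehicle, in both cases without overlap.

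**Figure D3:**
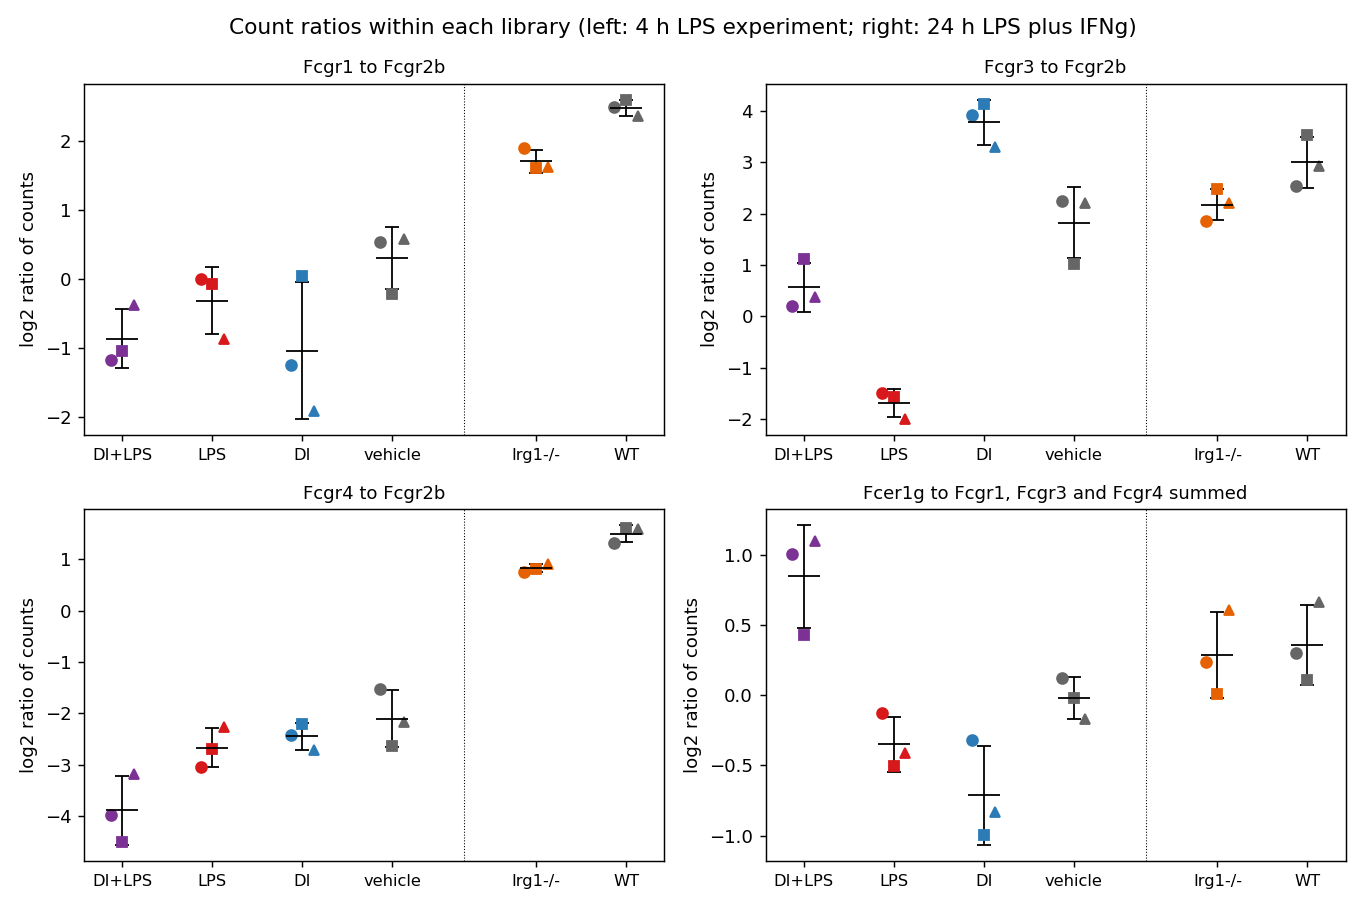
Log2 ratios of counts within each library, for Fcgr1, Fcgr3 and Fcgr4 to Fcgr2b and for Fcer1g to the 3 activating receptors summed. Points are libraries (circle, square and triangle for replicates 1, 2 and 3), horizontal bars are means and vertical bars 1 SD, and the dotted line parts the experiments. The Fcgr3 ratio has its lowest mean, -1.69, in LPS and its highest, 3.78, in DI, and each ratio to Fcgr2b is lower in Irg1-/- than in wild type with no overlap.

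After 24 h of LPS plus interferon gamma, none of the 6 genes was called between Irg1-/- and wild-type macrophages, where 0.0632% of all genes were called by the unpaired test. Fcgr2b had 113, 109 and 122 CPM in Irg1-/- libraries and 85.9, 61.9 and 73.9 CPM in wild-type libraries. All Irg1-/- libraries were above all wild-type libraries. Fcgr2b was 1.55-fold higher in Irg1-/- (log2 0.63 ± 0.19 SE, adjusted p = 0.47 in edgeR), and it was the 1 member with an unadjusted p under 0.05. DESeq2 and limma voom called 0 of the 6. Same-numbered libraries of this experiment varied together, which the unpaired test leaves out. With the replicate number as a block in edgeR, Fcgr2b was called higher (log2 0.64, adjusted p = 0.00042) in a fit that called 6.26% of all genes. It was higher in 3 of 3 pairs, which follows from groups that did not overlap.

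The other 5 genes overlapped between genotypes. Fcgr1 had 423, 332 and 375 CPM in Irg1-/- and 487, 375 and 381 CPM in wild type (log2 -0.14, 95% interval -0.55 to 0.27). Fcgr3 averaged 525 ± 101 CPM in Irg1-/- and 592 ± 108 CPM in wild type, and Fcgr4 averaged 203 ± 21.6 CPM in Irg1-/- and 207 ± 17.3 CPM in wild type (SD, n = 3 each). Their log2 differences were -0.17 (95% interval -0.63 to 0.28) and -0.03 (-0.42 to 0.36). Fcer1g averaged 1371 ± 350 CPM in Irg1-/- and 1566 ± 253 CPM in wild type (SD, n = 3 each; log2 -0.19, 95% interval -0.67 to 0.29). Fcgrt was close to the filter, with 21, 41 and 49 counts in Irg1-/- and 33, 24 and 37 counts in wild type, and its interval was the widest (log2 -0.21, -1.03 to 0.61). The ratio of Fcgr1 to Fcgr2b was log2 1.90, 1.61 and 1.62 in Irg1-/- and 2.50, 2.60 and 2.36 in wild type, 1.71-fold lower on average, and Fcgr4 to Fcgr2b was 1.59-fold lower, both without overlap. Since Fcgr2b is the shared denominator, these ratios restate its difference. Summed macrophage markers, not TMM-scaled, were 6621 to 8700 CPM in Irg1-/- and 6938 to 8405 CPM in wild type, overlapping.

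**Figure D4:**
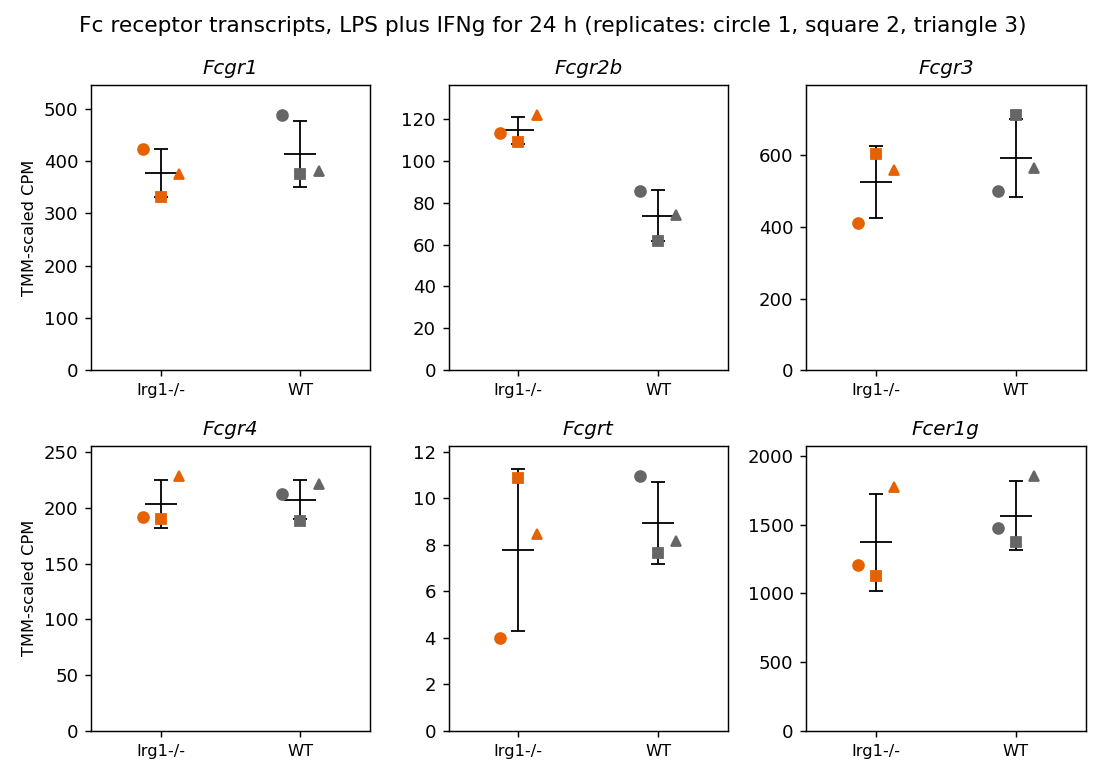
TMM-scaled CPM of the 6 genes in Irg1-/- and wild-type (WT) macrophages after LPS plus interferon gamma, on linear axes from 0. Points are libraries (circle, square and triangle for replicates 1, 2 and 3), horizontal bars are means and vertical bars 1 SD. Fcgr2b is the gene whose groups are apart, at 115 ± 6.58 CPM in Irg1-/- and 73.9 ± 12.0 CPM in WT.

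The kinases and adaptors that carry Fc receptor signals shared part of the pattern of the receptors. Of 25 tested members of that list, 8 were higher and 4 lower in LPS than in vehicle (median log2 0.37, against -0.24 over all genes), where 16% of all genes were called higher and 18.4% lower. With library totals alone the counts were 5 higher and 9 lower, where 853 of all 10285 genes were called higher and 4950 lower. Src, a kinase that phosphorylates receptor tyrosines, was 21.3-fold higher, with 107 ± 15.0 CPM in LPS and 4.87 ± 1.58 CPM in vehicle, and Lcp2, the adaptor SLP-76, was 17.5-fold higher, with 555 ± 38.5 CPM in LPS and 31.7 ± 3.26 CPM in vehicle (SD, n = 3 each). Syk rose 2.63-fold and Lyn 5.28-fold. Vav2, an exchange factor, had 1 count over the LPS libraries and 110 over the vehicle libraries, a ratio of 0.0331 (95% counting interval 0.000831 to 0.188).

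In DI plus LPS against LPS, 2 of the 25 were higher and 8 lower (median log2 -0.63, against 0.13 over all genes), where 8.38% of all genes were called higher and 7.53% lower. Pik3r1, a regulatory subunit of phosphoinositide 3-kinase, was 4.64-fold higher, with 301 ± 80.4 CPM in DI plus LPS and 64.4 ± 14.0 CPM in LPS, and Plcg2, a phospholipase, was 3.69-fold higher. The 8 lower were Cblb (3.61-fold), Pik3cd (3.54-fold), Nck1, Vav1, Pik3r5, Lyn, Src and Lcp2, which include catalytic and regulatory kinase subunits, adaptors and Src-family kinases, and Cblb, a ubiquitin ligase that restrains signalling. DI plus LPS against DI gave 8 higher and 2 lower, among them Lcp2 (14.4-fold) and Src (6.54-fold) higher. Of all genes, 11.4% and 7.56% were called in those directions. DI plus LPS against vehicle gave 7 higher and 2 lower, where 13.6% and 11% of all genes were called. With library totals alone it gave 4 and 9 members, where 703 and 3390 of all 10285 genes were called. The interaction was called for Pik3r1 (log2 2.02) and Pik3cd (log2 -1.93), where 1.39% of all genes were called higher and 1.52% lower.

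The brakes on Fc receptor signalling, 14 tested phosphatases, adaptors and inhibitory receptors, gave 2 higher and 4 lower in LPS than in vehicle (median log2 0.02, against -0.24 over all genes), where 16% of all genes were called higher and 18.4% lower. With library totals alone they were 0 higher and 6 lower, where 853 of all 10285 genes were called higher and 4950 lower. Lower were the adaptor Dok3 (8.89-fold), Inpp5d (4.97-fold), the inositol phosphatase that Fcgr2b recruits, the inhibitory receptor Cd300a (4.09-fold) and Sirpa (2.00-fold). Inpp5d had 22.5 ± 21.5 CPM in LPS and 94.2 ± 12.9 CPM in vehicle (SD, n = 3 each), so it fell in the comparison in which Fcgr2b rose. None was called with DI alone, where 1.33% of all genes were called higher and 1.51% lower. The single call in DI plus LPS against LPS was Dok3, 4.28-fold higher, where 8.38% of all genes were called higher and 7.53% lower. DI plus LPS gave 3 higher and 0 lower against DI, among them the inhibitory receptor Lilrb4a (4.04-fold), and 3 higher and 2 lower against vehicle. The shares of all genes called higher and lower were 11.4% and 7.56% against DI and 13.6% and 11% against vehicle. With library totals alone those counts were 1 higher and 4 lower against DI and 1 higher and 9 lower against vehicle. Of all 10285 genes, that setting called 709 higher and 2027 lower against DI, and 703 and 3390 against vehicle. Without LPS replicate 3, DI plus LPS against LPS called Inpp5d, Cd300a and Dok3 higher and Ptpn6, a tyrosine phosphatase, lower. It called 985 of all 10628 genes higher and 963 lower. The interaction then called Inpp5d, Cd300a and Dok3 higher, against 0 with all libraries, where 346 of all 10628 genes were called higher. Of 19 tested genes of the phagocytic cup and the oxidase, 5 were higher and 2 lower in LPS than in vehicle (median log2 0.32, against -0.24 over all genes, with 16% and 18.4% of all genes called). None was called in DI against vehicle (median 0.13, against -0.05), where 1.33% of all genes were called higher and 1.51% lower. In DI plus LPS, 2 were higher than in LPS (median 0.23, against 0.13, with 8.38% of all genes called higher). In the same group, 6 were higher than in DI (median 0.65, against -0.06, with 11.4% of all genes) and 6 than in vehicle (median 0.41, against -0.08, with 13.6% of all genes). Library totals alone gave 2 higher and 8 lower in LPS than in vehicle, where 853 and 4950 of all 10285 genes were called. Without LPS replicate 3, Myo10 and Ncf1 were also called lower in DI plus LPS than in LPS, with 963 of all 10628 genes. Pla2g4a, a phospholipase that frees arachidonic acid, was 15.1-fold higher and Myo10, a motor of the phagocytic cup, 10.2-fold higher in LPS than in vehicle. Pld1, a phospholipase, had 87 counts over the DI plus LPS libraries, 1 over the LPS libraries and 78 over the vehicle libraries. That set LPS at a ratio of 0.0467 to vehicle (95% counting interval 0.00117 to 0.268) and DI plus LPS 40.2-fold above LPS (7.03 to 1610).

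Other Fc-binding genes were mostly too low to test, with 5 of 16 passing the filter in experiment 1. Trim21, a cytosolic antibody receptor, was 8.10-fold higher in LPS than in vehicle and 6.09-fold higher in DI plus LPS than in DI. Fcrls was 5.19-fold lower in DI than in vehicle and 4.20-fold lower in DI plus LPS than in LPS, with 6.57 ± 0.920 CPM in DI plus LPS, 28.2 ± 6.72 in LPS, 6.22 ± 2.16 in DI and 32.7 ± 9.12 in vehicle (SD, n = 3 each). Fcrl1 had 49 counts over DI plus LPS, 0 over LPS and 101 over vehicle, at least 9.24-fold lower in LPS than in vehicle and at least 7.54-fold higher in DI plus LPS than in LPS, against a floor of 3 counts over the LPS group. Lgals3, which encodes galectin-3, was 2.30-fold higher in DI plus LPS than in LPS. Among 4 tested receptors that can pair with Fcer1g, Clec4e was 135-fold higher in LPS than in vehicle and 147-fold higher in DI plus LPS than in DI. Clec4n, a fungal sugar receptor also called dectin-2, was 4.53-fold higher in DI than in vehicle and 4.39-fold higher in DI plus LPS than in LPS, and Clec4d was 1.94-fold higher in DI plus LPS than in LPS. No gene of any of these lists was called between Irg1-/- and wild type by the unpaired test. With the replicate number as a block, the signalling genes Btk and Pik3cg and the cup motor Myo10 were called higher in Irg1-/-, and the signalling adaptor Tyrobp, Lgals3 and Clec4n were called lower. That fit called 6.26% of all genes tested, and these 6 list genes were named after their calls were seen.

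The genes that lie between Fcgr3 and Fcer1g on chromosome 1 were read as neighbours, chosen by position. Sdhc and Tomm40l were not called in any comparison. Cfap126 was tested in experiment 1 only and was not called there, at levels near the floor (0 to 6.18 CPM). Pcp4l1 had 1.37, 0.612 and 1.86 CPM in DI plus LPS, 4.97, 25.8 and 12.7 CPM in LPS, 1.06, 0.991 and 3.77 CPM in DI and 23.5, 15.3 and 9.44 CPM in vehicle. It was lower in DI than in vehicle (log2 -3.00, adjusted p = 0.016) and in DI plus LPS than in LPS (log2 -3.46, adjusted p = 0.0051).

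Over the 12 libraries of experiment 1, which share treatment groups, scaling and unequal depth, the log2 CPM of Fcgr1 correlated with that of Fcgr2b (Pearson r 0.93) and Fcgr4 (0.92), of Fcgr2b with Fcgr4 (0.90), and of Fcer1g with Fcgr1 (0.86). Fcgr3 was at -0.55 with Fcgr1 and -0.56 with Fcgr2b, and Fcgrt was at 0.40 with Fcgr1 and 0.15 with Fcgr2b. The genes with the profile most like each member over the same libraries were Pilra and Slamf9 for Fcgr1 (both 0.98), Themis2 and Arhgef3 for Fcgr2b (0.98 and 0.97), and Tlr7 and Tlr9 for Fcgr4 (0.97 and 0.96). They were Hbp1 and Tbc1d32 for Fcgr3 (0.92 and 0.90), Pltp and Trf for Fcgrt (0.96 and 0.94), and Ifitm3 and Nptn for Fcer1g (0.97 and 0.95). These are descriptions of 12 libraries in 4 groups, with no test.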

How the data were processed

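Libraries were made from poly(A) RNA with oligo-dT primers that carried barcodes and were then pooled, per the labels' protocols. STAR, HTSeq, DESeq2 and build mm10 are named without versions, per the submitters' processing notes, with annotation and counting options not given in the sources used here. Raw counts per gene were deposited for 18 libraries, as whole numbers with a different total in each column. Of 24052 Entrez identifiers, 23969 matched a symbol. Counts are not described as corrected for PCR copies, so counting intervals cover counting error only.

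Each experiment was fitted alone with edgeR 4.0.16 (limma 3.58.1, R 4.3.3): TMM scaling, filterByExpr with a minimum count of 10, 1 mean per group, 2-sided quasi-likelihood F tests and Benjamini-Hochberg adjustment over all genes tested, called under 0.05. The 4 groups of experiment 1 shared 1 estimate of spread. Fold changes used a prior count of 0.125, and ratios added 0.5 to each count. A gene with 0 counts in a group was set against a floor of 3 counts over that group. Depth set the precision: 3 counts equalled 0.393 to 3.14 CPM across the libraries. The scripts were checked on data made with known changes. For LPS against vehicle, 4.08% of simulated 2-fold and 52.0% of 4-fold changes were recovered, with 3.51% false. For Irg1-/- against wild type the values were 38.5% and 92.7%, with 8.7% false. A gene that was not called may therefore still have changed.

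The members and gene lists were chosen with earlier results of these data known. From each list, up to 3 called genes with the largest fold change, moving the same way in all 3 same-numbered pairs, were named; others in the text (Syk, Lyn, Sirpa and further called members of the signalling list) and the chromosome 1 neighbours were named after their values were seen. Marker lists covered macrophages, neutrophils, mast cells and basophils, B cells, NK and T cells, dendritic cells and stromal cells. The main test was unpaired in both experiments, and the replicate block was an alternative. Deviations from the group mean correlated between same-numbered libraries at 0.354 to 0.455 in 3 of 3 pairs of experiment 2. In experiment 1, 6 of 18 pairs exceeded 0.1. Alternatives were DESeq2 1.42.0, limma voom with sample weights, DESeq2 size factors, library totals alone, no filter, a replicate block, the 2 compared groups alone and each library left out. Some results that the naming rule covers are not reported here. A planned search of the members' proteins for tyrosine motifs was not run. Promoter windows came from RefSeq tables of GRCm38.p6.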

Additional observations from a re-analysis of the deposited data

Results flagged for a closer look

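The effect of DI on Fcgrt differed with and without LPS: the LPS change after DI minus the LPS change after vehicle was log2 1.66 ± 0.43 SE by the edgeR interaction term (adjusted p = 0.045, direction shared by 3 of 3 same-numbered sets). Fcgrt was 1.74-fold lower in DI plus LPS than in LPS and 5.49-fold lower in DI than in vehicle. The shallow LPS replicate 3 library held 20 Fcgrt counts. The call did not rest on it: without that library the interaction was log2 1.58 (adjusted p = 0.021). Leaving out any 1 other library ended the call (adjusted p = 0.051 to 0.14). Depth and TMM factors differ between LPS and vehicle, and their part in this difference was not tested.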

How the results depend on the processing

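Across the alternatives 692 fitted changes of single members stayed on the same side of the threshold, 45 fell below it and 24 passed it. Of the changes called in the main fit, 1 reversed (Fcer1g in LPS against vehicle, log2 -0.16 with library totals alone). Some changes that were not called also switched sign, such as Fcgr2b in DI plus LPS against vehicle (log2 0.56, and -0.20 with library totals alone). Ratios within libraries moved by less than their spread in all 192 recomputations. Members called in DI plus LPS against vehicle numbered 1, against 2 with DESeq2 size factors, no filter, the replicate block or only the 2 groups, 4 with DESeq2 or library totals, 5 with limma voom (4 lower and Fcgr2b higher), and 1 to 2 leaving out 1 library. The interaction called 1 member, against 0 with no filter, the replicate block or limma voom, 2 with DESeq2, and 0 to 1 leaving out 1 library. Leaving out 1 library gave 2 to 4 members in DI against vehicle (4 with all libraries) and 2 to 4 in DI plus LPS against DI (4 with all libraries). In Irg1-/- against wild type the replicate block, a paired fit, called 1 member against 0, and 594 genes against 6. In experiment 1, where only 6 of 18 same-numbered pairs correlated above 0.1, the block called Fcgr4 in DI plus LPS against vehicle and lost Fcgrt in the interaction. Causes were not tested.

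DESeq2 size factors moved the median of all genes by -0.14 in DI plus LPS against DI and -0.17 against vehicle (log2). Library totals alone, chosen after seeing the data, moved it by -0.94 in LPS against vehicle, -0.20 in DI against vehicle, 0.15 in DI plus LPS against LPS, -0.59 against DI, -0.79 against vehicle and 0.35 in the interaction. With them 853 genes were higher and 4950 lower in LPS against vehicle (1641 and 1888 with TMM), 72 and 194 in DI against vehicle (137 and 155), 901 and 527 in DI plus LPS against LPS (862 and 774), 709 and 2027 against DI (1170 and 778), 703 and 3390 against vehicle (1398 and 1130) and 215 and 86 in the interaction (143 and 156). Fitting only the 2 groups called 1250 higher and 858 lower in LPS against vehicle and 273 and 380 in DI plus LPS against LPS. Leaving out LPS replicate 3 as well, a setting added after seeing the data, still called the same 5 and 3 members. Depth limits Fcgr4, at 18 to 51 counts in the DI plus LPS libraries, and Fcgrt, at 21 to 49 counts in the Irg1-/- libraries.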
